A study of Canis lupus familiaris with 16 samples.

Results

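Across 16 canine soft tissue sarcomas, 10 genes of matricellular proteins and their close matrix partners were followed, chosen by name as *TNC*, *TNN*, *TNXB*, *POSTN*, *THBS1*, *THBS2*, *SPARC*, *MXRA5*, *ABI3BP* and *FN1*. They are 10 of the 41818 genes counted, and all 10 passed the filter for the tests, which kept the 15408 genes that reached 10 counts in 4 or more tumors. These 10 genes were chosen with earlier results of these data known. Total RNA had been extracted from formalin-fixed, paraffin-embedded sections of tumors from pet dogs of several breeds and sequenced after ribosomal RNA was depleted, to compare 3 histologically similar tumor types. By the label of molecular identity, 4 tumors were fibrosarcomas (FS, dogs aged 9 to 13 years), 6 were peripheral nerve sheath tumors (PNST, 8 to 13 years) and 6 were perivascular wall tumors (PWT, 2 to 14 years). No treatment is given in the labels, and no normal tissue was analysed here, so each type is compared only with the other types. Molecular identity equals the histological diagnosis in all tumors except S1-10, read as PWT in histology and placed with PNST, and S2-08, read as FS in histology and placed with PWT. The study moved these tumors on the basis of their expression, so every test between the types rests in part on groups set with these same data.

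Matricellular proteins are secreted into the extracellular matrix but mostly regulate cells rather than bear load. They bind collagen, fibronectin, growth factors and integrins, and they alter adhesion, migration, fibril assembly and growth factor signaling. Most are scarce in resting adult connective tissue and rise in development, wound repair and tumor stroma. Tenascin-X is an exception, being abundant in normal dermis and other loose connective tissue, where it takes part in the organization of collagen fibrils. In soft tissue sarcomas the tumor cells are themselves mesenchymal, so matrix genes can be read from tumor cells and from stromal cells alike. In RNA from whole sections, fewer cells of a kind and less RNA per cell cannot be told apart.

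Between 507728 and 4311876 counts fell on genes per tumor, and the ranges were 507728 to 2781899 in FS, 1545839 to 4311876 in PNST and 726025 to 2234165 in PWT. Levels are given as counts per 1000000 counts (CPM) after TMM scaling, and the log2 fold changes, their standard errors (SE) and adjusted p-values come from edgeR's quasi-likelihood test with Benjamini-Hochberg adjustment over all genes tested. A gene was called a differentially expressed gene (DEG) where its adjusted p-value was under 0.05 and its log2 fold change lay outside -1 to 1. The tumors carry the title prefix S1 or S2, with 3 S1 tumors among the 4 FS, 5 among the 6 PNST and 1 among the 6 PWT, so that prefix and type are largely entangled. S1-04 and S1-05, both PNST, have identical labels and may come from the same dog. Their gene counts had a Spearman rho of 0.923, against at most 0.911 in any other pair of tumors, while a chi-square per degree of freedom of 11.3 shows only that they are not the same library deposited again. Whether they are independent animals cannot be told from these counts, and they were kept as separate samples, with both summed as an alternative.

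The 10 genes together took 0.749% to 1.41% of the counts in FS, 0.968% to 1.63% in PNST and 0.58% to 1.16% in PWT, so their summed share overlapped between the types. Within that sum the genes moved in different directions. *TNXB* and *ABI3BP* were lowest in FS, the medians of *TNC*, *TNN*, *THBS2*, *SPARC* and *MXRA5* fell in the order FS, PNST, PWT, and *POSTN*, *THBS1* and *FN1* passed no test between the types. Over all 16 tumors the standard deviation of log2 CPM had a median of 1.44 over the 10 genes, against 0.71 over all genes tested. Within types the medians were 1.22 against 0.72 in FS, 0.79 against 0.49 in PNST and 0.78 against 0.59 in PWT. Because the 10 genes were chosen with earlier results known, their spread and shares of DEGs are set beside all genes as description only.

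**Figure D1:**
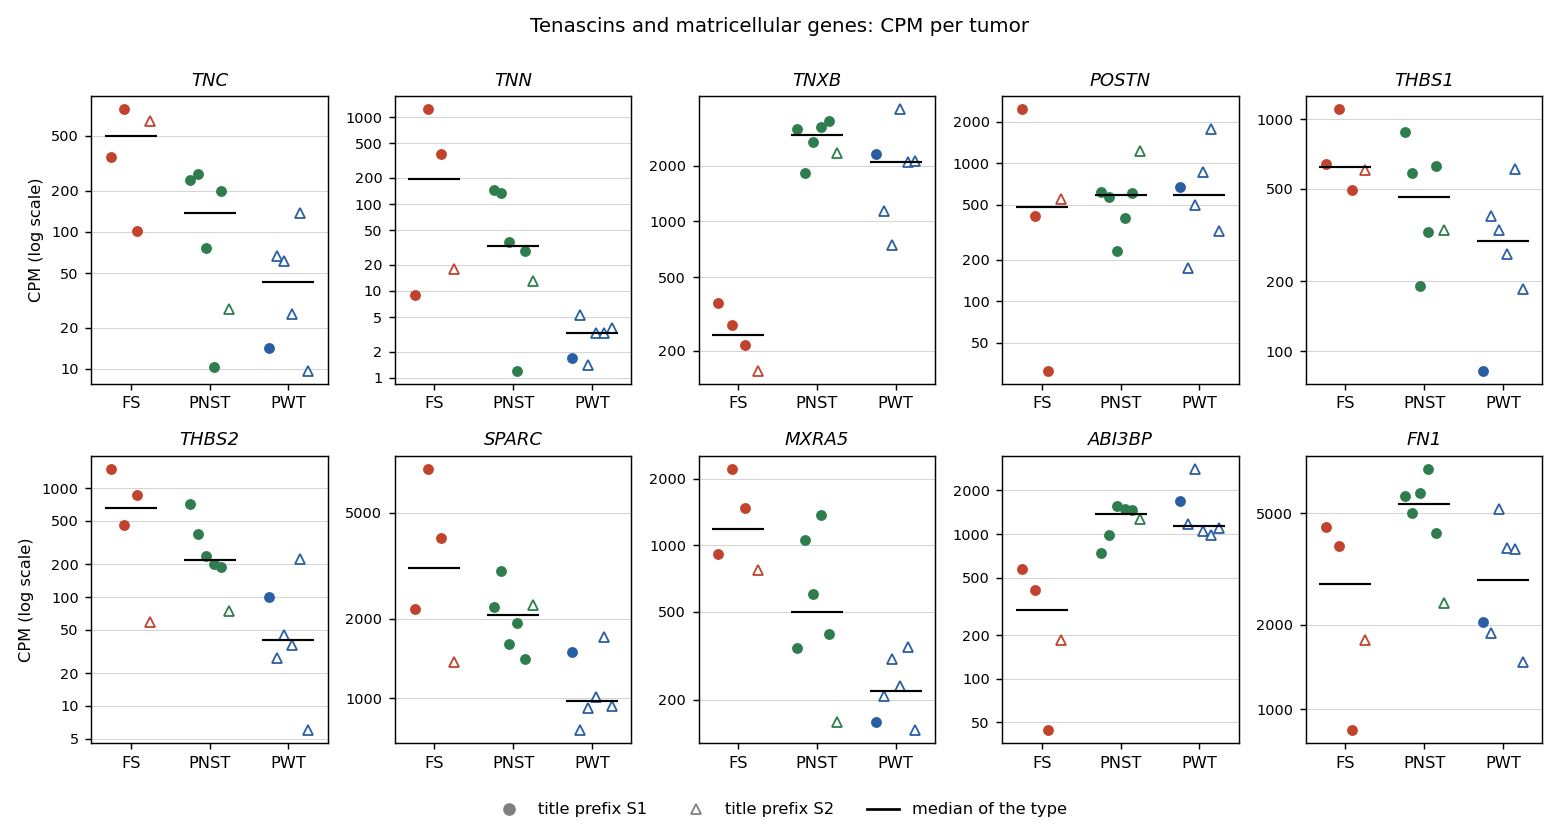
CPM on a log scale for each of the 10 genes, with 1 point per tumor, FS in red, PNST in green, PWT in blue, filled circles for title prefix S1, open triangles for S2, and a bar at the median of each type. The 4 FS lie below all 12 other tumors in *TNXB* (156 to 361 CPM against 746 to 4020) and in *ABI3BP* (44.2 to 578 against 742 to 2810), while the types overlap in the other 8 genes when FS are set against all other tumors.

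In FS against PNST and PWT pooled, 4 of the 10 genes were DEGs, where 9.46% of all genes tested were. *TNC* and *TNN* were higher, in a direction that held 5.78% of all genes, and *TNXB* and *ABI3BP* were lower, in a direction that held 3.68%. The median log2 fold change of the 10 genes was 1.02, against 0 over all genes. An unadjusted p under 0.05 was found for 7 of the 10, as for 25.4% of all genes. *TNXB*, *ABI3BP*, *TNN* and *MXRA5* are also among the genes the study names for a tumor type from these same samples, so their direction here is not independent evidence.

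*TNXB*, which encodes tenascin-X, had 361 CPM in S1-02, 274 in S1-11, 214 in S1-12 and 156 in S2-06, the 4 FS. PNST ran from 1820 to 3460 CPM with a median of 2920, and PWT from 746 to 4020 with a median of 2100. Every FS thus lay below every tumor of the other types, as it did in 1.64% of all genes. This gave a log2 fold change of -3.27 (SE 0.45, adjusted p = 0.000287). Against PNST alone it was -3.47 (SE 0.46, adjusted p = 0.00054) and against PWT alone -3.04 (SE 0.45, adjusted p = 0.000756), and FS lay below every PNST in 3.87% and below every PWT in 4.71% of all genes. PNST and PWT differed by 0.43 with a 95% interval of -0.31 to 1.17, and PWT spread more widely, with S2-04 at 746 and S2-03 at 1140 CPM below the lowest PNST. The highest *TNXB* of all 16 tumors was in S2-08, which histology had placed with FS. With tumors grouped by histology the fold change against both other types was -1.18 (adjusted p = 0.412) and the call was lost, while only 1.33% of all genes were called in that grouping. It was kept under the other settings run for it, S1 tumors alone among them. S2 tumors alone, with a single FS, were not run for this comparison. In the annotation of another dog assembly, UU_Cfam_GSD_1.0, *TNXB* overlaps *CYP21A2*, and whether reads were counted by strand is not given in the sources used here.

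*ABI3BP*, which encodes a secreted matrix protein linked to cell senescence, had 578 CPM in S1-02, 413 in S1-11, 186 in S2-06 and 44.2 in S1-12. PNST ran from 742 to 1560 CPM with a median of 1360, and PWT from 987 to 2810 with a median of 1140. FS were again below all other tumors, and S1-12 stood lowest, at 24 counts in the shallowest library (95% Poisson interval 28.3 to 65.8 CPM, counting error only). In FS against both other types the difference was -2.15 on the log2 scale (SE 0.50, adjusted p = 0.01), with -2.03 (SE 0.53, adjusted p = 0.0261) against PNST and -2.26 (SE 0.53, adjusted p = 0.012) against PWT. PNST and PWT differed by -0.23, with an interval of -1.15 to 0.69. Histology groups gave -1.61 (adjusted p = 0.115) and S1 tumors alone -1.90 (adjusted p = 0.113) in FS against both other types. Against PNST alone the call was also lost without S2-06, at -1.85 (adjusted p = 0.0711), and without S1-10 and S2-08, at -2.0 (adjusted p = 0.0568).

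*TNC*, which encodes tenascin-C, an anti-adhesive glycoprotein of wound and tumor stroma, had 780 CPM in S1-11, 647 in S2-06, 351 in S1-02 and 101 in S1-12. PNST ran from 10.3 CPM in S1-09 to 262 in S1-04 with a median of 137, and PWT from 9.72 in S2-11 to 138 in S2-09 with a median of 43.2. S1-11, S2-06 and S1-02 exceeded all other tumors, and S1-12 lay within the range of both other types. FS exceeded both other types by a log2 fold change of 2.32 (SE 0.69, adjusted p = 0.0382), and against PWT it was 3.17 (SE 0.82, adjusted p = 0.0175). Against PNST it was 1.79 (SE 0.79, adjusted p = 0.178), with an interval of 0.14 to 3.44. The call against both types was lost when any of S1-02, S1-05, S1-11, S2-04, S2-06, S2-07 or S2-08 was left out, with adjusted p-values of 0.0507 to 0.142 and the weakest value, 1.95, without S1-11. It was also lost with S1-10 and S2-08 left out (adjusted p = 0.056), in histology groups (adjusted p = 0.2) and in S1 tumors alone (1.65, adjusted p = 0.315), and the call against PWT was lost without S1-11 (2.81, adjusted p = 0.0538).

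*TNN*, which encodes tenascin-W (also called tenascin-N), known from bone and from tumor stroma, was the most variable of the 10 genes, with a 1020-fold range over the 16 tumors. It had 1230 CPM in S1-11 and 374 in S1-12, but 18.1 in S2-06 and 8.96 in S1-02. PNST ran from 1.21 CPM in S1-09, at 4 counts, to 146 in S1-03 with a median of 32.6. PWT ran from 1.39 CPM in S2-04, at 1 count, to 5.25 in S2-03, at 13 counts, with a median of 3.28. The 2 high FS stood above every other tumor and the 2 low ones inside the PNST range. All 6 PWT lay below all 4 FS, an order found in 3.89% of all genes. The 95% Poisson intervals of S1-02, at 25 counts (5.8 to 13.2 CPM), and of S2-03 (2.8 to 8.98 CPM) overlapped, however. The log2 fold change in FS against both other types was 3.65 (SE 1.08, adjusted p = 0.0357), and against PWT it was 6.93 (SE 1.28, adjusted p = 0.00301). Against PNST it was 2.76 (SE 1.03, adjusted p = 0.113). The call against both types was lost without S1-11 (2.0, adjusted p = 0.346), and without S1-10, S1-12, S2-07, S2-08 or S2-11 in turn, with adjusted p-values of 0.0503 to 0.0559. With the title prefix as a term it was 2.88 (adjusted p = 0.0568), in S1 tumors alone 3.22 (adjusted p = 0.178), without S1-10 and S2-08 3.53 (adjusted p = 0.0758) and in histology groups 3.22 (adjusted p = 0.163).

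**Figure D2:**
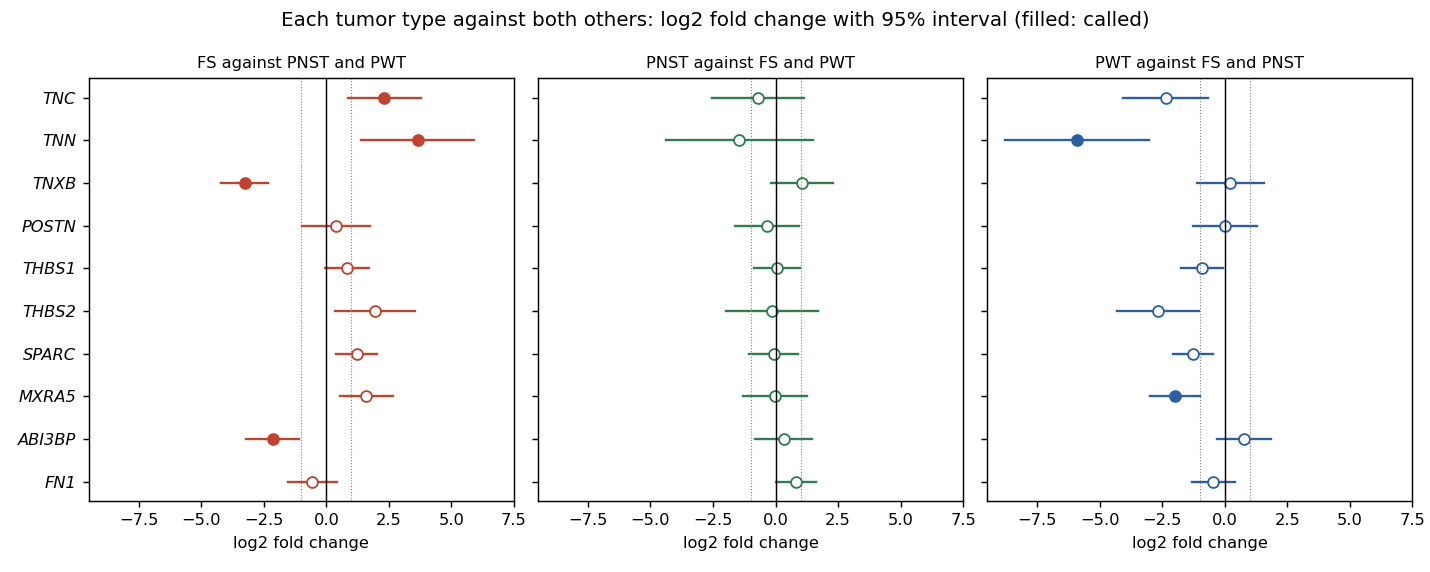
The log2 fold change (x axis) of each of the 10 genes with its 95% interval, for each type against both other types. Filled points are DEGs. In FS against both other types the intervals of *TNXB* and *ABI3BP* lie left of 0. Those of *TNC*, *TNN*, *THBS2*, *SPARC* and *MXRA5* lie right of 0 there, and *TNXB*, *ABI3BP*, *TNC* and *TNN* are filled. In PWT against both other types those of *TNC*, *TNN*, *THBS1*, *THBS2*, *SPARC* and *MXRA5* lie left of 0, and only *TNN* and *MXRA5* are filled. For PNST against both other types no point is filled, and only the interval of *FN1* lies to 1 side of 0.

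In PWT against FS and PNST pooled, 2 of the 10 genes were DEGs, both lower, where 2.12% of all genes were called in either direction and 0.714% were lower. The median log2 fold change of the 10 genes was -1.08, against -0.08 over all genes. An unadjusted p under 0.05 was found for 6 of the 10, as for 22.4% of all genes. *TNN* was lower by a log2 fold change of -5.89 (SE 1.37, adjusted p = 0.0331). PWT had only 1 to 13 counts of this gene each, and the 95% interval of the change ran from -8.78 to -3.01. *MXRA5*, which encodes a large secreted protein with leucine-rich repeats and immunoglobulin domains, had 146 to 347 CPM in PWT with a median of 219. It had 159 CPM in S2-07 to 1370 in S1-09 with a median of 501 in PNST, and 2210 in S1-11, 1470 in S1-12, 909 in S1-02 and 770 in S2-06. All 4 FS thus exceeded all 6 PWT, while PNST overlapped with both other types. In PWT against both others the change was -2.0 on the log2 scale (SE 0.47, adjusted p = 0.0341).

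With any single PWT left out, the folds stayed close to these values but the calls were lost. Without S1-07, S2-03, S2-04, S2-08, S2-09 or S2-11 in turn, *TNN* ran from -6.15 to -5.76 with adjusted p-values of 0.0505 to 0.0926 and *MXRA5* from -2.15 to -1.89 with 0.0531 to 0.0973, and *MXRA5* was also lost without S1-09 (adjusted p = 0.0518). With the title prefix as a term, the fold changes were -3.37 for *TNN* (adjusted p = 0.506) and -1.51 for *MXRA5* (adjusted p = 0.421), in a fit that called 0 of all 15408 genes. Within the 7 S2 tumors *MXRA5* had a fold change of -0.91 (adjusted p = 0.589), and *TNN* had too few counts to be tested there. In histology groups the adjusted p-values were 0.215 for *TNN* and 0.199 for *MXRA5*, and without S1-10 and S2-08 they were 0.0648 and 0.06.

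FS and PWT were the types that differed in most of the 10 genes: 7 were DEGs, where 11.2% of all genes tested were. *TNC*, *TNN*, *THBS2*, *SPARC* and *MXRA5* were higher in FS, in a direction that held 6.15% of all genes, and *TNXB* and *ABI3BP* were lower, in a direction that held 5.05%. *MXRA5* had a log2 fold change of 2.53 (SE 0.49, adjusted p = 0.0037) here, and of 1.59 (SE 0.51, adjusted p = 0.0501) in FS against both other types, just outside the threshold. With the title prefix as a term, *TNXB* and *ABI3BP* remained DEGs between FS and PWT and the other 5 did not, in a fit that called 5.81% of all genes. The log2 fold changes there were 3.35 for *TNC* (adjusted p = 0.0554) and 4.83 for *TNN* (adjusted p = 0.0848). They were 1.88 for *MXRA5* (adjusted p = 0.0694), 1.33 for *SPARC* (adjusted p = 0.107) and 1.49 for *THBS2* (adjusted p = 0.429). Without the term they were 3.17 for *TNC*, 6.93 for *TNN*, 2.53 for *MXRA5*, 1.71 for *SPARC* and 3.3 for *THBS2*. Of these only *TNC* was not reduced. Between FS and PNST only *TNXB* and *ABI3BP* were DEGs, both lower in FS, where 7.13% of all genes tested were DEGs and 2.98% were lower.

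*THBS2*, which encodes thrombospondin-2, an inhibitor of angiogenesis that also takes part in collagen fibril formation, had 1500 CPM in S1-02, 860 in S1-12, 459 in S1-11 and 59.4 in S2-06. PNST ran from 74 to 713 CPM with a median of 219, and PWT from 5.98 in S2-11 to 222 in S2-09 with a median of 40.6. The FS tumor S2-06 lay within the PWT range, and the other 3 FS were above all PWT. *THBS2* differed by a log2 fold change of 3.30 (SE 0.83, adjusted p = 0.0153) in FS against PWT. It was -2.68 (SE 0.77, adjusted p = 0.0654) in PWT against both other types and 1.95 (SE 0.77, adjusted p = 0.112) in FS against both. In PWT against both, *THBS2* was a DEG under DESeq2 (-2.70, adjusted p = 0.00319), with the mean of type means (-2.67, adjusted p = 0.0338) and without S2-06 or S2-07 (both -2.81, adjusted p = 0.044 and 0.0441), and DESeq2 also called *TNC* (-2.38, adjusted p = 0.0161) and *SPARC* (-1.28, adjusted p = 0.0105). With the title prefix as a term, the value in FS against PWT was 1.49 (adjusted p = 0.429), and the lowest tumor of each type in *THBS2* was an S2 tumor. Within the S2 tumors, PWT differed from the others by 0.02 (adjusted p = 0.995).

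*SPARC*, which encodes a collagen-binding protein also named osteonectin, had 7310 CPM in S1-11, 4030 in S1-12, 2170 in S1-02 and 1370 in S2-06. PNST ran from 1410 to 3020 CPM with a median of 2070, and PWT from 759 to 1710 with a median of 974. The 3 S1 tumors of FS exceeded every PWT, and S2-06 did not. The log2 fold change in FS against PWT was 1.71 (SE 0.40, adjusted p = 0.0114), and without S1-11 it was 1.15 (adjusted p = 0.062). In FS against both other types it was 1.21 (SE 0.39, adjusted p = 0.0513), and in PWT against both others -1.26 (SE 0.38, adjusted p = 0.0743). *SPARC* and *MXRA5* both became DEGs in FS against both other types under DESeq2, with adjusted p-values of 0.0211 and 0.0274.

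*THBS1*, which encodes thrombospondin-1, an inhibitor of angiogenesis and an activator of latent TGF-beta, ran in the same order without passing the threshold. FS had 1100, 638, 601 and 494 CPM in S1-11, S1-02, S2-06 and S1-12. PNST had 191 to 877 CPM with a median of 460 and PWT 82.6 to 608 with a median of 297. All types overlapped. The log2 fold change in FS against PWT was 1.20, with a 95% interval of 0.23 to 2.17 and an adjusted p of 0.0941, and it reached 1.51 (adjusted p = 0.0433) without S2-09, the PWT with the most *THBS1*. By the annotation named above *THBS1* overlaps *FSIP1*, so its counts carry the same uncertainty over strand as those of *TNXB*.

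*POSTN*, which encodes periostin, a partner of collagen, tenascin-C and integrins, varied most among the FS themselves. It had 2460 CPM in S1-02, 549 in S2-06, 417 in S1-11 and 31.3 in S1-12, the last at 17 counts. PNST ran from 233 to 1220 CPM with a median of 591 and PWT from 175 to 1770 with a median of 585. The highest and the lowest of the 16 values were thus both in FS. Set against both other types, FS had a log2 fold change of 0.39 (SE 0.65, adjusted p = 0.766), with an interval of -0.98 to 1.76, and without S1-02 it was -0.99.

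*FN1*, which encodes fibronectin, the fibril-forming scaffold that tenascins, thrombospondin and periostin bind, had 4460 CPM in S1-02, 3830 in S1-11, 1770 in S2-06 and 842 in S1-12. PNST ran from 2390 to 7200 CPM with a median of 5380, and PWT from 1470 to 5190 with a median of 2880. The 5 S1 tumors among the PNST lay between 4250 and 7200 CPM, and the S2 tumor S2-07 had 2390. Its log2 fold change in PNST against both other types was 0.81 (SE 0.38, adjusted p = 0.312), with an interval of 0.01 to 1.61. In FS against both other types it was -0.57 (SE 0.47, adjusted p = 0.485).

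The PNST median lay between those of FS and PWT in 6 of the 10 genes. None of the 10 was a DEG by edgeR in PNST against both other types, where 0% of all 15408 genes were, and 1 of the 10, *FN1*, had an unadjusted p under 0.05, as did 15.7% of all genes. DESeq2 also called 0 of the 10, while it called 290 of the 18710 genes it tested (1.55%). *TNXB* was the gene with the largest positive value, at 1.06 (SE 0.58, adjusted p = 0.382), and it reached 1.95 (adjusted p = 0.00365) when FS and PWT were given equal weight as the mean of their type means. Between PNST and PWT, 0 of the 10 were DEGs by edgeR, where 0.169% of all genes were, and 4 had an unadjusted p under 0.05, as did 19.6% of all genes. DESeq2 called *TNN* at 4.24 (adjusted p = 0.00446) and *MXRA5* at 1.49 (adjusted p = 0.0214) in that pair, and edgeR gave 4.17 (adjusted p = 0.0872) and 1.5 (adjusted p = 0.103), the latter a DEG without S2-07 (1.70, adjusted p = 0.0428).

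**Figure D3:**
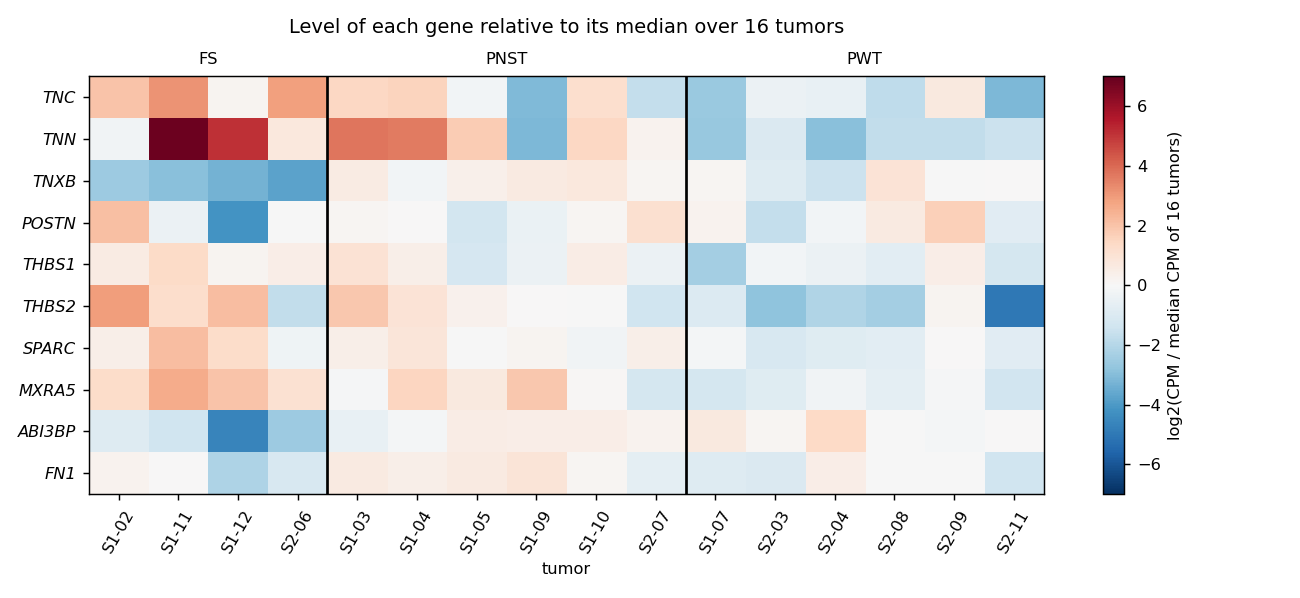
Heat map of the log2 ratio of each tumor's CPM to the median over all 16 tumors, with genes in rows, tumors in columns grouped as FS, PNST and PWT, and a color scale from -7 to 7. S1-11 holds the highest value in 5 genes and S1-12 the lowest in 3, both FS, and the PWT tumor S2-11 the lowest in 3.

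The tumors of a type did not move as a block. The FS tumor S1-11 had the highest CPM of all 16 tumors in *TNC*, *TNN*, *THBS1*, *SPARC* and *MXRA5*, and the FS tumor S1-02 had the highest in *POSTN* and *THBS2*. S1-12, also FS and the shallowest library, was second only to S1-11 in *TNN*, *SPARC* and *MXRA5* and had the lowest *POSTN*, *ABI3BP* and *FN1*. The PWT tumor S2-11 was lowest in *TNC*, *THBS2* and *MXRA5*. S1-04 had 3.45 times the *TNC*, 3.7 times the *TNN* and 3.07 times the *THBS1* of S1-05, the tumor with identical labels, but 0.675 times its *TNXB* and 0.637 times its *ABI3BP*. Between the 3 sequencing runs of an S1 tumor, the median coefficient of variation of CPM went from 2.04% for *ABI3BP* to 14.4% for *TNN*, while the standard deviation of log2 CPM between the 16 tumors went from 0.84 for *SPARC* to 2.92 for *TNN*. The run-to-run variation was largest at few counts, reaching 98.3% for *TNN* in S1-07.

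Other matricellular genes, of the same families and of others, gave 4 DEGs in FS against both other types among 20 tested of 22 listed, where 9.46% of all genes were called. *TNR* encodes tenascin-R, a tenascin of the nervous system. It had 9.21 CPM in S1-12, 8.22 in S1-11, 2.85 in S2-06 and 1.79 in S1-02, at 5 to 15 counts each. PNST had 36.4 to 886 CPM with a median of 192, and PWT 9.69 to 239 with a median of 102. FS were below all other tumors, at a log2 fold change of -5.32 (SE 1.10, adjusted p = 0.00469), and *TNR* too is on a list that the study chose from these samples. The margin between S1-12 and the lowest PWT, S2-03, was within counting error. *THBS3*, a pentameric thrombospondin, had 65.3 to 87.7 CPM in FS, 135 to 367 in PNST and 96.2 to 358 in PWT, again without overlap, at -1.58 (SE 0.34, adjusted p = 0.00557). The tenascin and the thrombospondin families thus each held genes that were lower in FS beside genes that were higher there or in FS against PWT.

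*CCN4*, a secreted protein of the CCN family induced by WNT signaling, had 140 CPM in S1-12, 103 in S2-06, 55.9 in S1-11 and 12.2 in S1-02. It had at most 10.1 CPM in PNST and at most 10.6 in PWT. All FS were above all other tumors, as in 1.56% of all genes, by a narrow margin in S1-02, at a log2 fold change of 3.9 (SE 0.56, adjusted p = 0.000373). *TGFBI*, the paralog of periostin, had 487 CPM in S1-02, 304 in S1-11, 41.8 in S2-06 and 18.4 in S1-12, against 8.36 to 76 in the other types. The 2 high FS stood above all other tumors and the other 2 within their range, at 2.75 (SE 0.60, adjusted p = 0.00689). None of the 20 was a DEG by edgeR in PNST against both others, where 0% of all genes were. None was in PWT against both others either, where 2.12% of all genes were. An unadjusted p under 0.05 was found for 2 in PNST and 3 in PWT, as for 15.7% and 22.4% of all genes. In FS against PWT *SMOC1*, of the SPARC family and named after its values were seen, was also higher, at 2.73 (SE 0.87, adjusted p = 0.0472) and a mean of 8.22 CPM against 1.25. It had only 2 to 28 counts per tumor in FS and 0 to 7 in PWT. The 2 types overlapped, with 3.68 to 15.4 CPM in FS and 0 to 5.72 in PWT.

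**Figure D4:**
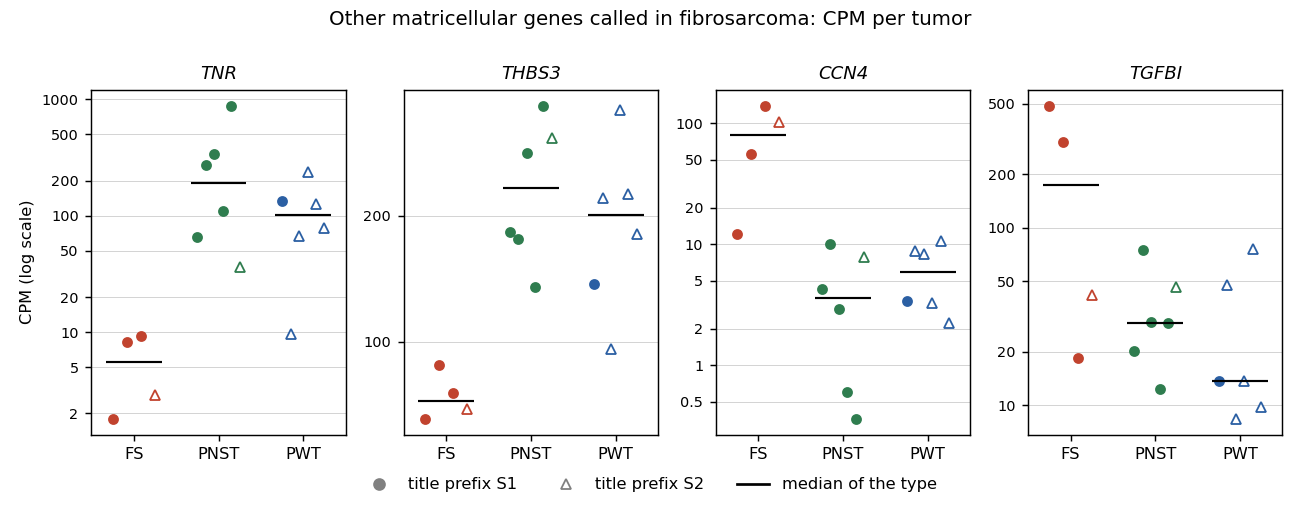
CPM on a log scale for *TNR*, *THBS3*, *CCN4* and *TGFBI*, with 1 point per tumor and the same symbols as for the 10 genes. The 4 FS lie below all other tumors in *TNR* (at most 9.21 CPM against at least 9.69) and *THBS3*, above all others in *CCN4*, and in *TGFBI* 2 FS lie within the range of the others.

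The receptors of these proteins, namely 8 integrin subunits together with *CD36*, *CD47*, *SDC4* and *STAB1*, gave 0 DEGs by edgeR among 12 tested in each of the 6 comparisons. Over all genes, 9.46% were called in FS, 0% in PNST and 2.12% in PWT against both others. The shares were 7.13% in FS against PNST, 11.2% in FS against PWT and 0.169% in PNST against PWT. Beside such shares, 0 of 12 says little of these receptors. In FS against both other types 1 of the 12 had an unadjusted p under 0.05, as did 25.4% of all genes, and in PWT against both others 3 did, as did 22.4% of all genes. The median log2 fold change of the receptors was 0.29 in FS and 0.08 in PWT. *ITGA8*, a subunit of a receptor for tenascins and fibronectin, was the closest to the threshold in FS, at 1.67 (SE 0.60, adjusted p = 0.0841). It was named after its values were seen.

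Markers of other cells moved with some of these results. The summed CPM of 8 fibroblast markers was 17900 to 99900 in FS, 16200 to 36700 in PNST and 9610 to 22300 in PWT, with the highest value in S1-11, and no marker was at 0 throughout a type. Of these 8 markers 3 were DEGs in FS against both others and higher there (*COL1A1*, *COL3A1* and *LUM*). Of all genes, 9.46% were called in that comparison and 5.78% were higher. *COL1A1* was lower in PWT against both others, at -2.03 (SE 0.52, adjusted p = 0.0458), where 0.714% of all genes were lower. The list did not move as 1 block, since 5 of the 8 had a positive log2 fold change in FS. An unadjusted p under 0.05 was found for 7 of the 8 there, as for 25.4% of all genes. *PDGFRA* was lower in FS than in PNST, at -1.18 (SE 0.36, adjusted p = 0.0498). *DCN* had a mean of 1250 ± 1200 CPM in FS (SD, n = 4), 3150 ± 672 in PNST and 3390 ± 1020 in PWT (n = 6 each), and *FAP* had means of 186, 356 and 443 CPM, neither of them a DEG. Of 9 pericyte and smooth muscle markers, *MCAM*, *ACTA2* and *CNN1* were higher in FS against both others. Their sums were 592 to 1880 CPM in FS, 392 to 892 in PNST and 393 to 733 in PWT for all 9. In FS against both others an unadjusted p under 0.05 was found for 6 of the 9, as for 25.4% of all genes. In PWT against both others 0 of the 9 were DEGs, where 2.12% of all genes were. There 1 of the 9 had a positive log2 fold change. Of 8 Schwann cell markers, 4 had enough counts to be tested and 0 were DEGs by edgeR in any comparison, and their sums of 42.4 to 107, 45.2 to 251 and 34.4 to 112 CPM overlapped between FS, PNST and PWT. In PNST against both others all 4 tested Schwann cell markers had a positive log2 fold change. Of these 4, 1 had an unadjusted p under 0.05, as did 15.7% of all genes. In that comparison 0% of all genes were called. The calls therefore cannot decide whether the marker lists separate PNST or PWT by the cells in their names.

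Markers of neighboring tissue were also counted in some sections. The 5 epidermis markers summed to 18.5 to 1360 CPM in FS, 9.05 to 1230 in PNST and 4.18 to 929 in PWT. The 5 adipocyte markers summed to 5.52 to 49.5, 5.43 to 107 and 2.79 to 67 CPM. The 5 skeletal muscle markers reached 776 CPM in S1-11 and 403 in S1-07, against at most 5.12 in any PNST, and too few tumors held them for a test. The 5 endothelial markers summed to 188 to 472 CPM in FS, 110 to 576 in PNST and 155 to 455 in PWT, the 5 macrophage markers to 125 to 884, 217 to 484 and 174 to 697, and the 5 T and B cell markers to 3.68 to 38.7, 1.12 to 24.8 and 3.27 to 35.1. None of the tested markers in these lists was a DEG by edgeR in any comparison, where 0% to 11.2% of all genes were. The part of any of these cells in the results was not tested.

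For each of the 10 genes, the gene whose log2 CPM followed it most closely over the 16 tumors was found by Spearman's rho, as a description that also carries type, prefix and depth. *TNXB* was followed most closely by *RABEP1* (0.929), *ABI3BP* by *KLF3* (0.935) and *FN1* by *RNF166* (0.868). *TNC* was nearest to *CHDH* (0.9), *TNN* to *LAMC3* (0.894), *MXRA5* to *SEMA6C* (0.924) and *SPARC* to *GAS6* (0.938). *THBS2* was nearest to *SLC39A13* (0.924) and *POSTN* to *YWHAZ* (0.835). *THBS1* had *TNC* itself as its nearest gene (0.874), the only link of this kind within the 10.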

How the data were processed

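The authors deposited whole-number read counts per gene, made with HTSeq per the labels, without normalization, for the ROS_Cfam_1.0 dog assembly; whether reads were counted by strand is not given in the sources used here. Of 16 tumors, 9 with title prefix S1 had 3 runs each and 7 with prefix S2 had 1, and runs were summed. Reads listed on no gene (5 summary lines) were left out, so 22.9% to 30.6% of the listed reads per tumor were used. Tumors were grouped by the label of molecular identity. In R 4.3.3, edgeR 4.0.16 (TMM, glmQLFit, glmQLFTest) was fitted to the 15408 genes that reached 10 counts in 4 or more tumors, for each type against both others pooled and for each pair of types in a fit of 3 type means. SE is the log2 fold change divided by the root of F. CPM is the count per 1000000 of the TMM-scaled total. Levels of different genes are not compared, since transcript lengths were not used, and intervals of single counts cover counting error only. At least 3 counts correspond to 0.853 CPM in S1-03, the deepest library, and to 5.52 CPM in S1-12, the shallowest. P-values set the difference between types against the spread between tumors, with all 16 tumors taken as independent, S1-04 and S1-05 among them. In simulated counts for the 15408 genes with 200 changed, the test recovered 62% of 4-fold and 8% of 2-fold changes in FS, 70% and 20% in PNST and 73% and 10% in PWT, each against both others, and 7.89%, 8.16% and 3.49% of calls were false. There the 2 pooled types had equal means in every gene, unlike in the tumors, so these shares need not hold for the data. In PNST against both others, 0 of the 15408 genes were called in the data, and 170 with the mean of the 2 other type means. The 10 genes and all lists were chosen with earlier results of these data known. The text names all 10 genes, genes of the other lists called in a type against both others, and for each of the 10 the gene with the highest rank correlation. The alternatives were RLE and upper quartile factors, 2 other filters, DESeq2 1.42.0, prefix as a term, histology groups, leaving out S1-10 and S2-08 or each tumor in turn, S1-04 and S1-05 summed, sampling to the lowest total, and the mean of the 2 other type means. S1 tumors only and S2 tumors only were added after seeing the data. The annotation of UU_Cfam_GSD_1.0 served only to find overlapping genes: *TNN* and *POSTN* each overlap a long noncoding RNA gene and *TNR* 2 pseudogenes, beside those named in the text.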

Additional observations from a re-analysis of the deposited data

How the results depend on the processing

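Of 10 genes in 6 comparisons, 1471 values under an alternative kept their direction and their side of the threshold, 62 fell below it, 31 came to pass it and 65 changed sign, none of the last in a DEG. The number of the 10 genes called as DEGs, 4 in FS, 0 in PNST and 2 in PWT against both others, and 2, 7 and 0 in FS against PNST, FS against PWT and PNST against PWT, stayed within 1.5 times of that value in 134 cases. DESeq2 gave 5 in PWT against both others and 2 in PNST against PWT. With prefix as a term there were 0 in PWT against both and 2 in FS against PWT. Histology groups gave 0 in FS and 0 in PWT against both, 0 in FS against PNST and 0 in FS against PWT. Without S1-10 and S2-08 there were 2 in FS and 0 in PWT against both, and 1 in FS against PNST. The mean of the 2 other type means gave 7 in FS, 1 in PNST and 5 in PWT. S1 tumors only gave 1 in FS against both and 1 in FS against PNST, and S2 tumors only gave 0 in PWT. Leaving out each tumor in turn gave 2 to 6 in FS, 0 to 0 in PNST and 0 to 3 in PWT against both, 1 to 3 in FS against PNST, 5 to 8 in FS against PWT and 0 to 1 in PNST against PWT. The count of 2 in FS came without S1-11, S2-07 or S2-08. The count in PWT was 1 without S1-09 and 0 without any of the 6 PWT. The count in FS against PNST was 1 without S2-06, and the count in PNST against PWT was 1 without S2-07. Over all genes tested the calls shifted too: with prefix as a term to 0 in PWT against both and 895 in FS against PWT, against 327 and 1726 without it, and in histology groups to 205 in FS and 0 in PWT against both, 0 in FS against PNST and 5 in FS against PWT, against 1457, 327, 1099 and 1726. Without a single PWT, the PWT calls over all genes ran from 11 without S2-11 and 14 without S2-04 to 351 without S1-07, and they were 212 without S1-09. DESeq2 called 880 genes in PWT against both and 519 in PNST against PWT. S2 tumors only called 0 of 11874 genes. Where few genes are called over all, a 0 among the 10 says little of these genes. The cause of these shifts was not tested.

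Signs turned in log2 fold changes that were not DEGs, some near 0 and some not. In PNST against both others, *MXRA5* was -0.04 and turned to 0.06 with no filter, 0.12 in histology groups and 0.23 with the mean of type means, *SPARC* (-0.07) to 0.03, 0.07 and 0.01 under the same settings, and *THBS2* (-0.15) to 0.01 in histology groups and 0.38 with the mean of type means. *TNN* (-1.45) turned to 0.41 under DESeq2 and 0.71 with the mean of type means, and *THBS1* (0.06) to -0.18 with prefix as a term, -0.06 in histology groups, -0.09 without S1-10 and S2-08 and -0.18 in S1 tumors only. In PWT against both others, *POSTN* (0.01) turned to 0 under DESeq2, -0.02 with the mean of type means, -0.03 when sampled to the lowest total, -0.07 with no filter, with S1-04 and S1-05 summed and without S1-10 and S2-08, -0.13 in histology groups, -0.17 with prefix as a term and -0.27 in S2 tumors only. *FN1* (-0.46) turned to 0.02 with prefix as a term and 0.63 in S2 tumors only, where *THBS2* (-2.68) turned to 0.02. With each tumor left out in turn, *POSTN* (0.39 in FS against both) ran from -0.99 to 0.79 in FS, -0.67 to 0.05 in PNST, -0.48 to 0.47 in PWT, -0.86 to 0.91 in FS against PNST, -1.10 to 0.76 in FS against PWT and -0.56 to 0.27 in PNST against PWT. In PNST against both, *THBS2* ran from -0.62 to 0.57, *MXRA5* from -0.40 to 0.39, *THBS1* from -0.20 to 0.30, *SPARC* from -0.22 to 0.37 and *TNN* from -1.94 to 0.49. *FN1* ran from -0.48 to 0.16 in FS against PWT, *ABI3BP* from -0.31 to 0.06 in PNST against PWT and *TNXB* from -0.08 to 0.39 in PWT against both. Within S2 tumors *TNN* had too few counts to be tested. The alternatives were run for the 10 genes only, not for the other matricellular genes, receptors and markers. No paired analysis was possible because the labels give no replicate numbers that the types share. At these depths 2-fold changes were mostly missed in simulated counts, so genes that were not called may still differ.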
